A study of Rattus norvegicus with 9 samples.

Results

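The 5 genes of MHC class I antigen processing, Tap1, Tap2, Psmb8, Psmb9 and B2m, were followed in rat lung under mechanical ventilation and pure oxygen. Every probe set that the array's annotation assigned to one of these genes alone was taken, which gave 7 probe sets for 5 of the 4736 genes that the annotation names. Tap1 (X57523_at and X57523_g_at) and Psmb9 (D10757_at and D10757_g_at) had 2 probe sets each, named below by the ends of their identifiers as the at set and the g_at set. Tap2 (X63854_at), Psmb8 (D10729_s_at) and B2m (rc_AI170268_at) had 1 each. All 7 passed the filter on low signal, so no member went untested. A further probe set, annotated to B2m together with other genes, was listed at or below 0 on every array and was not used.

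The RNA came from lungs of rats in 4 groups, mechanical ventilation with 100% oxygen, mechanical ventilation with 21% oxygen, spontaneous breathing of 100% oxygen and spontaneous breathing of 21% oxygen. Each group held 2 samples, a and b, and for sample b of mechanical 100% there were 2 arrays, whose mean was taken as 1 value. The sources used here do not give strain, age, tidal volume or length of exposure. Whether a and b were separate animals is not stated, and the p-values below therefore cover only the spread seen between them, which could be technical.

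MHC class I molecules show peptides from inside a cell to cytotoxic T cells. In cells exposed to interferon gamma, the proteasome takes up the inducible subunits encoded by Psmb8 and Psmb9 in place of their constitutive counterparts, which changes the ends of the peptides it makes. Tap1 and Tap2 encode the subunits of the transporter that carries the peptides into the endoplasmic reticulum, where the class I heavy chain folds with B2m, its invariant light chain, and takes up a peptide. In the rat, Tap1, Tap2, Psmb8 and Psmb9 lie side by side in the class II region of the MHC, while B2m lies outside it. Lymphocytes express this pathway strongly, and interferons raise it in most cells.

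The promoters of the 5 genes are shown because Tap1 and Psmb9 share a stretch of promoter sequence while their measured levels peaked in different groups. In the RefSeq annotation of GRCr8 the order along chromosome 20 was RT1-DOb, Tap2, Psmb8, Tap1, Psmb9 and RT1-DMb, and B2m was on chromosome 3. Tap1 and Psmb9 started 457 bases apart on opposite strands, head to head, so that their windows of 250 bases before to 50 bases after the start overlapped by 44 bases. The windows were chr20:4668494-4668793 on the minus strand for Tap1, chr20:4668750-4669049 on the plus strand for Psmb9, chr20:4656982-4657281 on the minus strand for Psmb8, chr20:4652247-4652546 on the minus strand for Tap2 and chr3:129549080-129549379 on the plus strand for B2m. Each is printed 5′ to 3′ along its gene, with matches to the motifs below in capitals.
Tap1: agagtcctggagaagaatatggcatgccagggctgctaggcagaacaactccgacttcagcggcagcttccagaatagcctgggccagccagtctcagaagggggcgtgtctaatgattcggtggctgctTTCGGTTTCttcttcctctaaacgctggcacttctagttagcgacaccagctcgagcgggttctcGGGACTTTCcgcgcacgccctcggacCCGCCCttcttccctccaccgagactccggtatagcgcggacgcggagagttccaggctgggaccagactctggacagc
Psmb9: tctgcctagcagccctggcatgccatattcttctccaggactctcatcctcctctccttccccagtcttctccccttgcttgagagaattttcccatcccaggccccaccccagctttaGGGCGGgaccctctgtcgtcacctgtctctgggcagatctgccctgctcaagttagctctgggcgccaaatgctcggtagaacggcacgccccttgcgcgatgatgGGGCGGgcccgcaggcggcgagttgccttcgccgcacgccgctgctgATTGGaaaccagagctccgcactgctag
Psmb8: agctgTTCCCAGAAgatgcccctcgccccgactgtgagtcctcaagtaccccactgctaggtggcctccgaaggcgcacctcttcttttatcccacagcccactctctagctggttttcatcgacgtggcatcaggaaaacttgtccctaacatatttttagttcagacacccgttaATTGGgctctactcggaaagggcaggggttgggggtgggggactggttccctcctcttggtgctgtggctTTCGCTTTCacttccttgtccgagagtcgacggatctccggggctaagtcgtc
Tap2: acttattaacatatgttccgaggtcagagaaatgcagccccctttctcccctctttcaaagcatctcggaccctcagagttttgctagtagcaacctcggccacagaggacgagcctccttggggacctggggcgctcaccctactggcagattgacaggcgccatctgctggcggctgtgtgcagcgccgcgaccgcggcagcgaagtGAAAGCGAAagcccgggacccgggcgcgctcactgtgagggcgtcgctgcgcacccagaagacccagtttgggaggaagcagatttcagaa
B2m: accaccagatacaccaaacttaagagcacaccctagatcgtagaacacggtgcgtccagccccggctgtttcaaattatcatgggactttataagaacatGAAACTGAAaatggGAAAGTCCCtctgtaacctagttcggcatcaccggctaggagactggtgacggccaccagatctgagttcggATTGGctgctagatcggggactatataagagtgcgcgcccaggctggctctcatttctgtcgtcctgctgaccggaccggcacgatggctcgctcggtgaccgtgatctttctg
Motifs were searched on both strands. The core of the interferon-stimulated response element, GAAANNGAA, was found once each in the Tap1, Psmb8, Tap2 and B2m windows and was not among the letters of the Psmb9 window, and 9.71% of 33469 rat promoter windows held it. The Tap1 match lay between the starts of Tap1 and Psmb9, beyond the 250 bases searched before Psmb9. The interferon gamma activated site, TTCNNNGAA, was found in the Psmb8 window and in 8.87% of all windows. A GC box, GGGCGG, was found once in the Tap1 window and at 2 places in the Psmb9 window, and in 33.1% of all windows. The CCAAT box, which the factor NF-Y binds in class I promoters, was found in the Psmb8, Psmb9 and B2m windows and in 37.5% of all windows. A kappa B motif, GGGACTTTC, was chosen after the letters had been read and was found in the Tap1 and B2m windows and in 0.326% of all windows. A match is a run of letters and not a measured site.

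The values are the authors' scaled intensities, and the same probe set can be compared between samples but not with another probe set. Trimmed means lay between 800.5 and 801.1 on the 9 arrays. The brightest signals differed, with 99th percentiles of 7072 to 8357 on the 3 mechanical 100% arrays and 9931 to 14581 on the other arrays, and the mean of B2m lay at percentile 99.1 of all probe sets. A line for a lot, with no lot given, stood in the description of both arrays of spontaneous 21%, of sample a of mechanical 100% and of the second array of its sample b, and in none of the others. Ventilation at 21% oxygen and oxygen in spontaneous breathing therefore cannot be told apart from that line within either set of arrays.

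The tissue was checked against fixed markers. Lung epithelium genes, 8 of 9 on the array, summed to between 44665 and 49680 in mechanical 100% samples, 69625 and 73660 in mechanical 21% samples, 60365 and 76518 in spontaneous 100% samples, and 83686 and 97722 in spontaneous 21% samples. T and natural killer lymphocyte genes, 15 of 18 on the array, summed to between 3495 and 3549 in mechanical 100%, 31989 and 33892 in mechanical 21%, 3481 and 3967 in spontaneous 100%, and 4211 and 4377 in spontaneous 21% samples, so that mechanical 21% stood far above the rest. Cd8a, the co-receptor that reads class I, was listed below 0 in letter a and at 76 in letter b of mechanical 100%, against 2718 and 2941 in mechanical 21%. It was at 143 and below 0 in spontaneous 100%, and below 0 and at 247 in spontaneous 21%. Brown fat genes, 5 of 6 on the array, summed to between 5081 and 5094 in mechanical 100%, 16078 and 16105 in mechanical 21%, 6122 and 6717 in spontaneous 100%, and 5994 and 6101 in spontaneous 21% samples, and Plin1 was below 0 throughout. Lpl, which other tissues express too, averaged 4885, 4469, 3170 and 4933 of these sums in the same order of groups, and Ucp1, which defines brown fat, averaged 34.5, 6213, 1093 and 259.6. Skeletal muscle genes, 9 of 10 on the array, summed to between 2222 and 2470 in mechanical 100%, 7776 and 7987 in mechanical 21%, 27128 and 27886 in spontaneous 100%, and 5428 and 5591 in spontaneous 21% samples, with Tnni2 below 0 in mechanical 100%. Macrophage genes, 4 of 10 on the array, summed to between 6411 and 6681 in mechanical 100%, 10249 and 11742 in mechanical 21%, 8126 and 9772 in spontaneous 100%, and 11199 and 16046 in spontaneous 21% samples. Endothelium genes, 4 of 6 on the array, summed to between 8859 and 9783 in mechanical 100%, 6020 and 6837 in mechanical 21%, 5370 and 5744 in spontaneous 100%, and 10683 and 12341 in spontaneous 21% samples, with Vwf below 0 in mechanical 21%. Neutrophil genes, 4 of 7 on the array, summed to between 13336 and 13550 in mechanical 100%, 21766 and 21892 in mechanical 21%, 17924 and 19962 in spontaneous 100%, and 17466 and 19121 in spontaneous 21% samples. In these whole lung extracts, fewer cells of a type and less RNA per cell cannot be told apart.

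**Figure D1:**
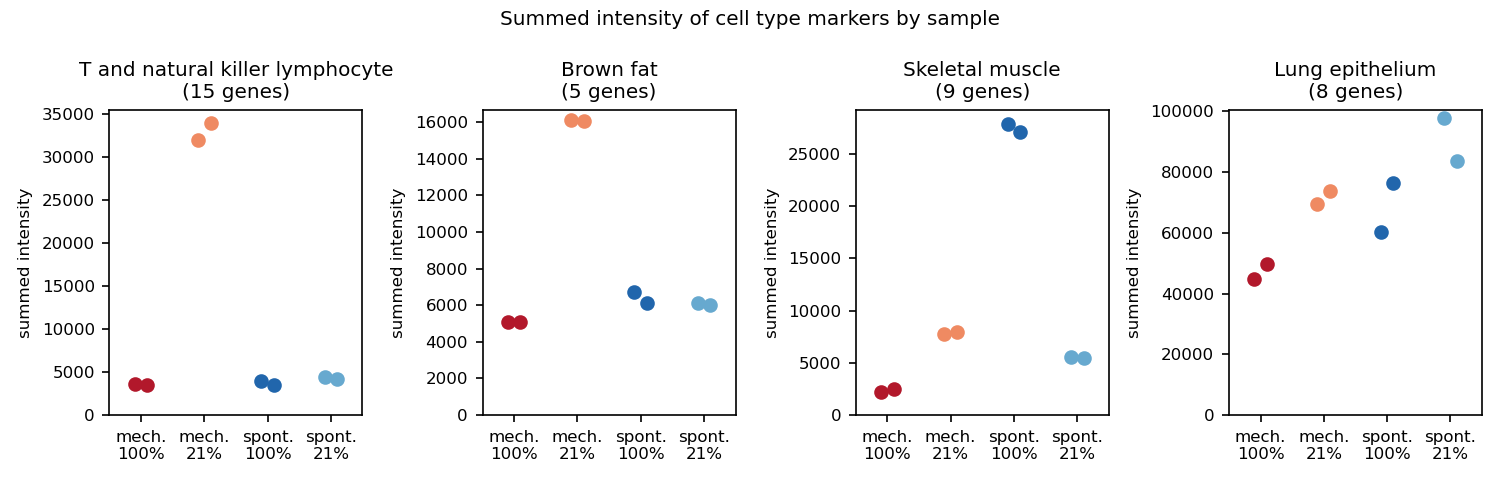
Summed intensity of cell type markers (vertical axis, scaled units) in the 2 samples of each group, mechanical 100%, mechanical 21%, spontaneous 100% and spontaneous 21% from left to right, 1 point a sample. The lymphocyte and brown fat sums of mechanical 21% stand apart from the other groups, the muscle sum of spontaneous 100% does so as well, and the lung epithelium sum is lowest in mechanical 100%.

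Of the transporter genes, Tap2 was highest in lungs ventilated with 21% oxygen and lowest in lungs that breathed 100% oxygen spontaneously. Its intensities were 1162 and 1052 in mechanical 100%, 1965 and 1767 in mechanical 21%, 569 and 660 in spontaneous 100%, and 981 and 1122 in spontaneous 21% samples. The highest and lowest group means, 1866 ± 140 and 614.7 ± 63.9 (SD, n = 2 each), differed 3.04 times, and mechanical 100% and spontaneous 21% samples overlapped between them. Tap2 was higher with ventilation at both oxygen levels, by 0.81 on the log2 scale at 100% oxygen (SE 0.14, limma adjusted p = 0.0075) and by 0.81 at 21% oxygen (SE 0.14, limma adjusted p = 0.011). It was lower with oxygen in both ways of breathing, with a log2 change of -0.73 under ventilation (limma adjusted p = 0.0069) and -0.74 in spontaneous breathing (limma adjusted p = 0.015). The interaction, the change with ventilation at 100% oxygen minus that at 21%, was 0.01 (95% interval -0.46 to 0.48, limma adjusted p = 0.99). With both exposures against neither the change was 0.07 (95% interval -0.26 to 0.41), and that value turned below 0 when the arrays were scaled to a common distribution. The 2 calls that involve mechanical 100% stayed with every sample left out. Within the arrays without a lot line the change with ventilation at 100% oxygen was 0.71 (limma adjusted p = 0.055). The call for ventilation at 21% oxygen was lost without the letter a sample of mechanical 21%, and that for oxygen in spontaneous breathing without letter b of spontaneous 21% or letter a of spontaneous 100%. Both were also lost with the lot line as a block (limma adjusted p = 0.1 and 0.18), and neither can be told apart from that line within either set of arrays.

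Tap1, the partner subunit, followed another order, and its probe sets differed. The g_at set read 677 and 832 in mechanical 100%, 425 and 458 in mechanical 21%, 358 and 277 in spontaneous 100%, and 534 and 640 in spontaneous 21% samples. Its 2 samples of mechanical 100% were above all others, and those of spontaneous 100% below all others. Ventilation raised this set at 100% oxygen by 1.15 on the log2 scale, 2.23 times (SE 0.19, limma adjusted p = 0.0061), a call that stayed with every sample left out and under each other setting tried. Its change with ventilation at 21% oxygen was -0.38 (95% interval -0.82 to 0.07, limma adjusted p = 0.23). The interaction was 1.53 (SE 0.27, limma adjusted p = 0.0055), and 1.64 with the lot line as a block (limma adjusted p = 0.12). Oxygen raised the set under ventilation by 0.72 (limma adjusted p = 0.023), a call lost without letter b of mechanical 100% or either sample of mechanical 21%, and under both other scalings. In spontaneous breathing it was lower with oxygen, with a change of -0.81 (limma adjusted p = 0.027), a call lost without either sample of spontaneous 21% or letter b of spontaneous 100%. That call was also lost without a filter on low signal and with the lot line as a block.

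The at set of Tap1 read 967 and 694 in mechanical 100%, 705 and 875 in mechanical 21%, 597 and 591 in spontaneous 100%, and 1006 and 938 in spontaneous 21% samples. Spontaneous 100% was lowest here too, but mechanical 100% and mechanical 21% overlapped. Its group means were 830.2 ± 193, 790.3 ± 120, 594.3 ± 4.23 and 971.9 ± 47.8 in the same order of groups (SD, n = 2 each). The lower level with oxygen in spontaneous breathing was the only call of this set in 6 tests, with a log2 change of -0.67 (limma adjusted p = 0.044), and it was lost when any sample other than those of mechanical 100% was left out and under 7 of the 11 other settings tried. Its change with ventilation at 100% oxygen was 0.44 (95% interval 0.01 to 0.87, limma adjusted p = 0.12), and its interaction was 0.73 (95% interval 0.12 to 1.34, limma adjusted p = 0.076). With oxygen under ventilation it changed by 0.06 (limma adjusted p = 0.83), against 0.72 in the g_at set, and that value turned to -0.15 under quantile and -0.19 under cyclic loess scaling. In the other tests the probe sets of Tap1 differed in sign once, the change with both exposures against neither being -0.24 in the at set and 0.34 in the g_at set, neither of them called.

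**Figure D2:**
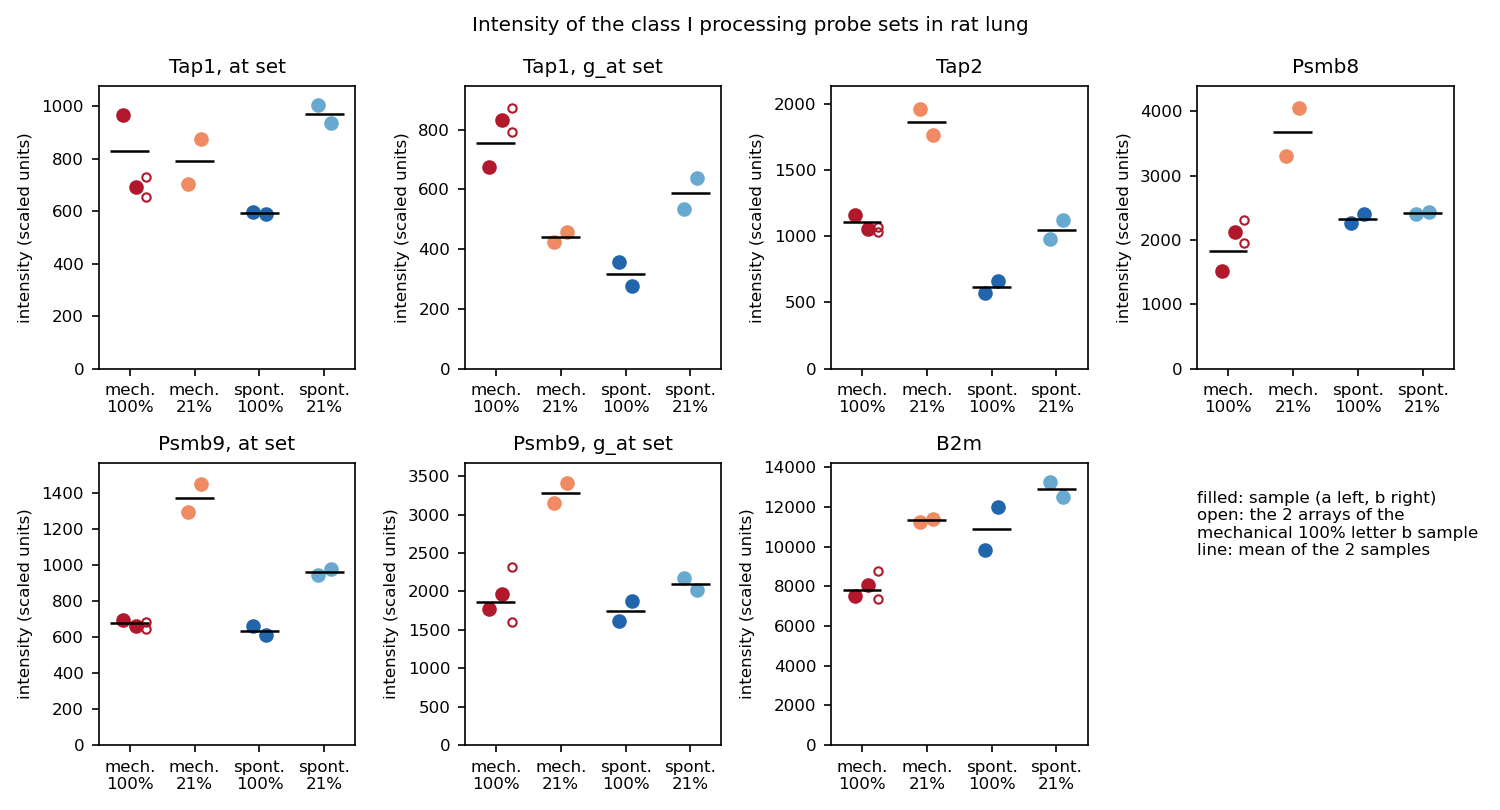
Scaled intensity (vertical axis) of each of the 7 probe sets in mechanical 100%, mechanical 21%, spontaneous 100% and spontaneous 21% lungs, from left to right; filled points are samples, open points the 2 arrays of the letter b sample of mechanical 100%, and lines the group means. Psmb8 and both Psmb9 sets are highest in mechanical 21%, the g_at set of Tap1 in mechanical 100%, and B2m in spontaneous 21%.

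The inducible proteasome subunits were highest in lungs ventilated with 21% oxygen. Psmb8 read 1520 and 2125 in mechanical 100%, 3308 and 4058 in mechanical 21%, 2264 and 2402 in spontaneous 100%, and 2400 and 2429 in spontaneous 21% samples. Both mechanical 21% samples were above all others, and spontaneous 100% and spontaneous 21%, next to each other in the order, overlapped. The arrays of the letter b sample of mechanical 100% read 1946 and 2305. Under ventilation oxygen lowered Psmb8 to 0.5 times its level in 21% oxygen, a log2 change of -1.01 (SE 0.17, limma adjusted p = 0.0039). That call stayed with every sample left out and within the arrays without a lot line, where the change was -0.90 (limma adjusted p = 0.02). Ventilation at 21% oxygen gave a change of 0.59 (95% interval 0.20 to 0.99) that missed the threshold (limma adjusted p = 0.055), and at 100% oxygen a change of -0.37 (95% interval -0.77 to 0.03, limma adjusted p = 0.15). The difference between these, the interaction, was -0.96 (SE 0.24, limma adjusted p = 0.022). It was not called without letter a of mechanical 100%, letter b of spontaneous 100% or letter b of mechanical 21%, nor without a filter on low signal or with the lot line as a block. In spontaneous breathing the change with oxygen was -0.05 (95% interval -0.45 to 0.35).

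Psmb9, the companion subunit, was measured by 2 probe sets that ran alike. The at set read 694 and 663 in mechanical 100%, 1296 and 1454 in mechanical 21%, 660 and 611 in spontaneous 100%, and 948 and 977 in spontaneous 21% samples. Mechanical 21% was above all other samples, spontaneous 21% came next, and the groups with 100% oxygen were lowest. The g_at set read 1772 and 1964 in mechanical 100%, 3157 and 3414 in mechanical 21%, 1612 and 1874 in spontaneous 100%, and 2179 and 2017 in spontaneous 21% samples. Here too mechanical 21% stood above the rest. Mechanical 100% and spontaneous 100%, next to each other in the order, overlapped in the g_at set and not in the at set. The 2 arrays of the letter b sample of mechanical 100% differed 1.44 times in the g_at set, with 1607 and 2321.

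Under ventilation oxygen lowered both Psmb9 sets, the at set by a log2 change of -0.98 (SE 0.13, limma adjusted p = 0.0017) and the g_at set by -0.81 (SE 0.13, limma adjusted p = 0.0027). Both calls stayed with every sample left out and under each other setting tried. With ventilation at 21% oxygen the at set was higher by 0.49 (limma adjusted p = 0.045) and the g_at set by 0.64 (limma adjusted p = 0.016). The at set lost that call with any of the 8 samples left out, and the g_at set lost it without letter b of spontaneous 21% or either sample of mechanical 21%. Both sets also lost it with the lot line as a block. Ventilation at 100% oxygen gave a change of 0.09 in each set (95% intervals -0.22 to 0.40 and -0.20 to 0.38), and both turned below 0 under quantile scaling. With oxygen in spontaneous breathing the at set was lower, by -0.57 on the log2 scale (limma adjusted p = 0.026), while the g_at set changed by -0.27 (limma adjusted p = 0.18). That call of the at set was lost without any of the 4 samples compared, and with the lot line as a block. The interactions were -0.41 in the at set (limma adjusted p = 0.15) and -0.55 in the g_at set (limma adjusted p = 0.053), so a difference between oxygen levels was not called for Psmb9 on the values as deposited. It was called for both sets under quantile scaling, at -0.62 and -0.64 (limma adjusted p = 0.038 and 0.045), and under cyclic loess scaling, at -0.70 and -0.62 (limma adjusted p = 0.025 and 0.039).

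Beside these values stand the markers of other cells. Psmb8, Psmb9 and Tap2 were highest in mechanical 21%. In that group 8 of 11 tested T and natural killer lymphocyte genes rose over spontaneous 21% and 0 fell by limma (8 and 2 at an unadjusted p under 0.05). Their median log2 change was 2.17, and 13.6% of all genes were called. Cd3g, a chain of the T cell receptor complex, read 4467 and 4691 in mechanical 21% against 603 and 474 in spontaneous 21%. Klrb1a (-0.29), Gzmb (-0.41) and Gzmm (-0.74) of the same list were not called. Brown fat and neutrophil sums were highest in mechanical 21% too. Between mechanical 100% and mechanical 21%, 7 of those 11 lymphocyte genes fell and 1 rose, where 33.6% of all genes were called. The part of these cells in the proteasome and transporter values was not tested. In spontaneous 100% lungs, where Tap2 and both Tap1 sets were lowest, skeletal muscle sums were highest and endothelium sums lowest. Against spontaneous 21% all 3 tested endothelium genes fell there, Kdr (-1.34), Ace (-1.21) and Pecam1 (-0.84). Of 4 tested brown fat genes, Ucp1 (1.92), Fabp4 (1.27) and Cidea (1.24) rose and 1, Lpl, fell. In this comparison 16.4% of all genes were called. The interaction was higher in those 3 endothelium genes, with a median of 1.44, and 27.0% of all genes were called. It was higher in the g_at set of Tap1 too, but not called in the at set (0.73, limma adjusted p = 0.076). In other cells the interaction was lower in 8 of 9 skeletal muscle genes and higher in 0. Of the 11 lymphocyte genes it was lower in 7 and higher in 1. The part of these cells was not tested either. Lymphocyte sums in spontaneous 100% were also below those in spontaneous 21% lungs, in the direction of Tap2. Of the 11 tested lymphocyte genes only 1 was called there, Cd3g, which was lower (-0.57, limma adjusted p = 0.048). The median of the 11 was -0.31, and 16.4% of all genes were called.

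B2m was highest in lungs that breathed 21% oxygen spontaneously. It read 7534 and 8063 in mechanical 100%, 11258 and 11381 in mechanical 21%, 9824 and 11995 in spontaneous 100%, and 13264 and 12519 in spontaneous 21% samples. Mechanical 100% was below all other samples, and mechanical 21% and spontaneous 100% overlapped. The group means of 7799 ± 374 in mechanical 100% and 12890 ± 527 in spontaneous 21% (SD, n = 2 each) were its lowest and highest and differed 1.65 times. As deposited, B2m was lower in mechanical 100% than in each other group, by log2 changes of -0.73 against spontaneous 21% (limma adjusted p = 0.0082), -0.48 against spontaneous 100% (limma adjusted p = 0.028) and -0.54 against mechanical 21% (limma adjusted p = 0.013), but with quantile scaling the same 3 changes were 0.10, 0.12 and 0.07. Of the 11 other settings tried, quantile scaling alone lost the first of these calls, which stayed under cyclic loess scaling. The other 2 calls were lost under quantile and cyclic loess scaling, among other settings. With samples left out, the first call was lost without letter a of mechanical 100%, the third also without either sample of mechanical 21%, and the second without any of those 3 samples, letter b of mechanical 100% or letter b of spontaneous 100%. Ventilation at 21% oxygen gave -0.19 (95% interval -0.48 to 0.11) and oxygen in spontaneous breathing -0.25 (95% interval -0.54 to 0.05), neither of them called. Lung epithelium sums, taken only from the values as deposited, moved with B2m, being lowest in mechanical 100% and highest in spontaneous 21%. The brightest signals were also lower on the mechanical 100% arrays than on the others. Neither the part of the epithelium nor that of the scaling in these sums was tested.

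Read over the 7 probe sets, oxygen under ventilation gave the most calls as deposited, 6, but 4 under each other scaling, where the interaction had 4 as well and, under cyclic loess, ventilation at 21% oxygen also had 4. The 5 pairwise comparisons share samples, each group entering 2 or 3 of them, and are not independent. Between mechanical 100% and mechanical 21% lungs, 1 probe set was higher and 5 were lower (B2m among them as deposited, but not under the other scalings), against a background of 35.1% of all 5244 tested probe sets called, 20.7% higher and 14.4% lower. The background itself leaned with the scaling, the share of calls that were higher being 58.9% as deposited, 48.6% under quantile and 48.4% under cyclic loess scaling. The median change was -0.73 over the members and 0.14 over all tested probe sets.

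Between spontaneous 100% and spontaneous 21% lungs, 4 probe sets were lower (both Tap1 sets, Tap2 and the Psmb9 at set) and 0 were higher by limma, nor was any higher at an unadjusted p under 0.05. The background was 16.8%, with 7.06% higher and 9.71% lower, and the medians were -0.57 over the members and -0.05 over all. Between mechanical 21% and spontaneous 21% lungs, Tap2 and both Psmb9 sets were higher and 0 members were lower by limma (0 at an unadjusted p under 0.05), against a background of 14.5%, with 7.0% higher and 7.49% lower, and medians of 0.49 and -0.06. With the lot line as a block and the 9 arrays kept apart, each of these comparisons had 0 member calls by limma, though 3 members in each had an unadjusted p under 0.05, and 2.44% and 2.02% of all probe sets were called. With the arrays apart and no lot block their counts were 4 and 3, as before.

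Between mechanical 100% and spontaneous 100% lungs, Tap2 and the g_at set of Tap1 were higher and B2m was lower as deposited, against a background of 26.9%, with 16.6% higher and 10.4% lower. The medians were 0.09 over the members and 0.13 over all. With both exposures against neither, mechanical 100% against spontaneous 21%, the Psmb9 at set and B2m (not under quantile scaling) were lower, and 0 members were higher by limma (0 at an unadjusted p under 0.05). The background was 14.5%, with 7.49% higher and 7.02% lower, and the medians were -0.24 over the members and 0.10 over all. The call of the Psmb9 at set there (-0.48, limma adjusted p = 0.049) was lost with any of the 8 samples left out. The interaction was called for Tap1 (g_at set, higher) and Psmb8 (lower), against a background of 27.4%, with 16.9% higher and 10.5% lower. The medians of the interaction were -0.29 and 0.15. The share of interaction calls that were higher was 61.7% as deposited, 51.2% under quantile and 49.0% under cyclic loess scaling.

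**Figure D3:**
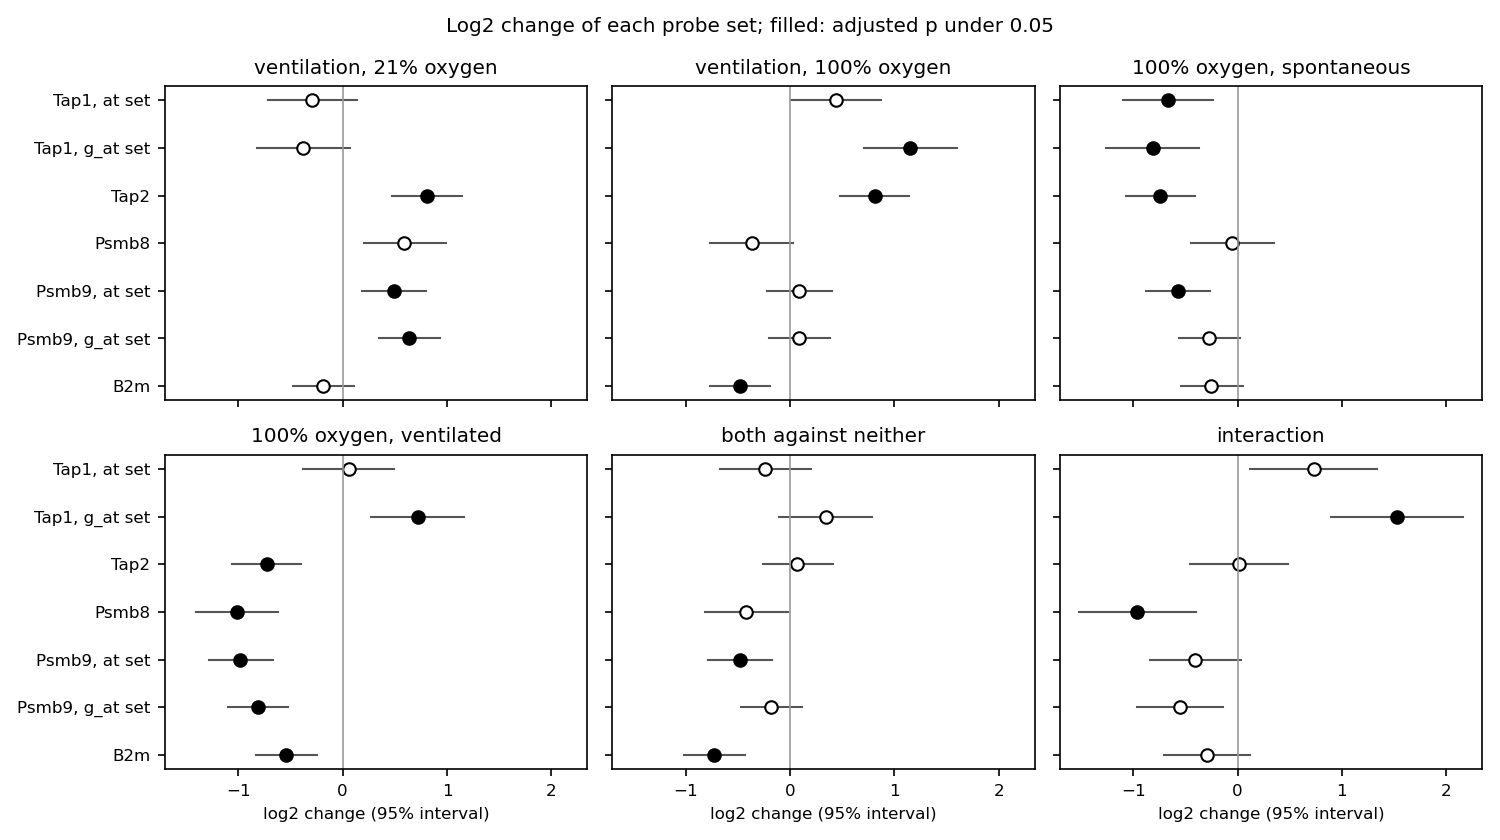
Log2 change of each probe set (horizontal axis, points) with its 95% interval (lines) in the 5 pairwise comparisons and the interaction; filled points have a limma adjusted p under 0.05. Oxygen under ventilation lies at -0.73 or lower for Tap2, Psmb8 and Psmb9, at -0.54 for B2m as deposited and at 0.72 for the g_at set of Tap1.

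The partners of these genes were read from lists, each gene by its brightest probe set. Psme2, a subunit of the interferon-inducible proteasome activator, was 1400 in mechanical 100%, 2271 in mechanical 21%, 2047 in spontaneous 100% and 1297 in spontaneous 21% lungs as group means. It rose with ventilation at 21% oxygen by 0.79 (limma adjusted p = 0.015) and fell with ventilation at 100% oxygen, a change of -0.55 (limma adjusted p = 0.034), with an interaction of -1.34 (limma adjusted p = 0.0038). Unlike the 7 member sets, none of which rose there, it was higher with oxygen in spontaneous breathing, by 0.64 (limma adjusted p = 0.029). Psme1, which pairs with it, had 2 tested sets that were lower in mechanical 100% than in mechanical 21% lungs, with changes of -1.09 and -0.38, and the second of these, of the brighter set, turned to 0.16 under quantile scaling. Psmb5, a constitutive catalytic subunit, had 3 tested sets between -0.24 and -0.18 in that comparison, none of them called, and its brightest set turned to 0.10 under quantile scaling. In the interaction 2 of the 3 were lower, at -0.73 (limma adjusted p = 0.018) and -0.59 (limma adjusted p = 0.04). The second of these calls was lost under quantile and cyclic loess scaling. With ventilation at 100% oxygen 1 set was lower (-0.59), and with oxygen in spontaneous breathing 1 was higher (0.49). Psmb6, Psmb7, Psmb10 and Tapbp were not analysed here.

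The other subunits of the proteasome core, 11 tested of 14 listed, gave 4 lower and 0 higher calls by limma between mechanical 100% and mechanical 21% lungs (5 and 0 at an unadjusted p under 0.05), with a median of -0.28, and 33.6% of 3181 tested genes were called there. Psma5 (-0.93, limma adjusted p = 0.0025) and Psma7 (-0.71, limma adjusted p = 0.004), structural subunits of its outer rings, had the smallest p. Between mechanical 21% and spontaneous 21% lungs 3 of the 11 were higher and 0 lower by limma (9 and 0 at an unadjusted p under 0.05), namely Psma7, Psma5 and Psma4, with 13.6% of all genes called. With oxygen in spontaneous breathing 3 were higher and 0 lower by limma (4 and 0 at an unadjusted p under 0.05). These were Psmb1 (0.73), Psma4 (0.60) and Psma7 (0.43, lost under quantile scaling), and 16.4% of all genes were called. The interaction was lower in 6 of the 11 and higher in 0 by limma (7 and 0 at an unadjusted p under 0.05), against 27.0% of all genes, and it was 6 lower under quantile and under cyclic loess scaling as well. Genes of the regulatory particle, 11 tested of 20, gave 3 higher and 2 lower calls between mechanical 100% and mechanical 21% lungs as deposited, 1 higher and 3 lower under quantile scaling, and 2 of each under cyclic loess scaling.

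Of the genes of peptide loading and trimming, 9 of 12 were tested. Between mechanical 100% and spontaneous 100% lungs 4 were higher and 0 lower by limma (6 and 2 at an unadjusted p under 0.05), with a median of 0.55 and 25.6% of all genes called. These were Tpp2, a cytosolic peptidase (0.73), the chaperone Canx (0.57), Bag6 (0.56) and the translocon subunit Sec61a1 (0.55), and 2 of these 4 calls were lost under quantile and 3 under cyclic loess scaling. The probe sets of Canx differed, with 3 of 5 higher in that comparison. Calr, a chaperone of the loading complex, had 3 sets that ran from -0.72 to 1.43 between mechanical 100% and mechanical 21% lungs, 1 called in each direction.

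Class I heavy chain genes, 6 tested of 35 listed, gave 0 higher and 5 lower calls by limma between mechanical 100% and mechanical 21% lungs (0 and 5 at an unadjusted p under 0.05), with 5 lower and 1 higher under quantile and under cyclic loess scaling, where 33.6% of all tested genes were called as deposited. The 6 included the class I-like genes Cd1d1, among the 5 lower (-0.49, limma adjusted p = 0.03), and Fcgrt, not called (0.19, limma adjusted p = 0.26). RT1-CE12 and RT1-CE16 were lower in mechanical 100% than in spontaneous 21% lungs by log2 changes of -1.21 (limma adjusted p = 0.0037) and -1.26 (limma adjusted p = 0.0049). Their probe sets belong to families of near-identical class I genes, so which gene they read is uncertain. By limma 0 heavy chain genes, each by its brightest probe set, were called with ventilation at 21% oxygen or with oxygen in spontaneous breathing. In these comparisons 1 was higher and 2 were lower at an unadjusted p under 0.05, and 13.6% and 16.4% of all genes were called. The 3 tested sets of RT1-S3 differed. With ventilation at 21% oxygen 1 of them, not the brightest, was higher (0.88, limma adjusted p = 0.0075) and 0 were lower. In mechanical 100% lungs 1 set was higher than in spontaneous 21% and spontaneous 100% lungs, while the other 2 were lower than in mechanical 21% lungs.

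Genes of interferon signalling, 16 tested of 30, gave 4 higher and 0 lower calls by limma between mechanical 100% and spontaneous 100% lungs (6 and 0 at an unadjusted p under 0.05), where 25.6% of all genes were called. They included the kinase Jak1 (1.24, limma adjusted p = 0.0064), Nfkb1 (1.01, limma adjusted p = 0.0039) and Irf1 (0.44, limma adjusted p = 0.039), a factor that binds the response element named above. Both tested sets of Irf1 were higher in that comparison, at 0.44 and 0.84. With ventilation at 21% oxygen, the only call was Irf7 (1.52, limma adjusted p = 0.0097). Between mechanical 100% and mechanical 21% lungs 4 signalling genes were higher, Jak1 (1.21) among them, and 2 lower, Irf7 (-0.9) among them. Among interferon-induced effectors, 9 tested of 42, Rsad2 (1.28, limma adjusted p = 0.0021) was the single call with ventilation at 21% oxygen, where 13.6% of all genes were called. Between mechanical 100% and mechanical 21% lungs 4 effectors were lower, Mx2 (-1.93), Rsad2 (-1.21), Gbp2 (-0.75) and Ifitm3 (-0.54), and 1 was higher, Adar (0.78). There 33.6% of all genes were called. The effector calls were 3 lower and 0 higher under quantile and under cyclic loess scaling. In mechanical 100% against spontaneous 100% lungs 2 effectors rose, the RNA editing enzyme Adar (0.98, limma adjusted p = 0.013) and Lgals3bp (0.68, limma adjusted p = 0.018), and 1 fell, Mx2, by 1.75 on the log2 scale (limma adjusted p = 0.00072). MHC class II genes, 10 tested of 13, gave 0 higher and 4 lower calls by limma between mechanical 100% and spontaneous 21% lungs (0 and 4 at an unadjusted p under 0.05), where 12.4% of all genes were called, among them Cd74 (-0.75) and RT1-Da (-0.75), both of which turned their sign under quantile scaling.

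**Figure D4:**
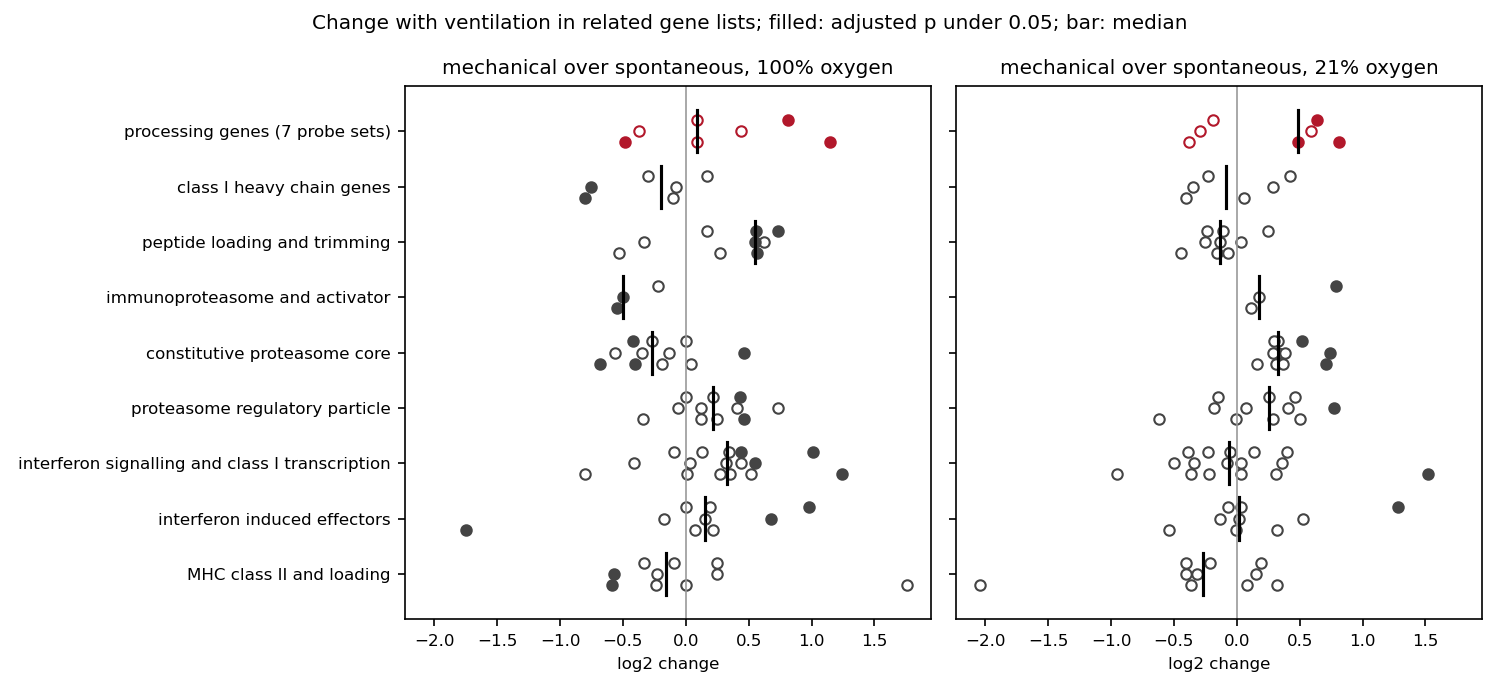
Log2 change with ventilation (horizontal axis) at 100% oxygen, on the left, and at 21% oxygen, on the right, for the 7 probe sets and for the tested genes of 8 related lists, 1 point each; filled points have a limma adjusted p under 0.05 and bars are medians. The median of the loading list is 0.55 on the left and -0.13 on the right, and that of the proteasome core is -0.27 on the left and 0.33 on the right.

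For each gene the 3 genes of most similar pattern were found, as the root mean square difference of centred log2 values over the 8 samples, among 3176 other genes. The nearest to Psmb9 was Cdk1, a cell cycle kinase (0.076), followed by the respiratory chain genes Ndufs7 (0.118) and Ndufab1 (0.119), where the median gene stood at 0.485. For Psmb8 they were Ndufv3 (0.115), Acat1 (0.123) and Pgam1 (0.123), with a median of 0.519. For Tap2 they were Ctse (0.133), Dgka (0.156) and Top2a (0.192), with a median of 0.637. For Tap1, by its brighter at set, they were Ndrg4 (0.103), Shh (0.109) and Syngr2 (0.116), with a median of 0.408. For B2m they were Anxa2 (0.044), Cst3 (0.051) and Prdx6 (0.052), with a median of 0.443. The likeness is across 8 samples that share an array design and the scaling.

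Among themselves the probe sets of Psmb9 differed by 0.162 on that measure, and Psmb8 lay 0.195 from the Psmb9 g_at set. The probe sets of Tap1 differed by 0.363, more than Psmb8 and Psmb9 did. The g_at set of Tap1 lay 0.598 from the g_at set of Psmb9, its head to head neighbour, and 0.696 from Psmb8, the widest gap of all pairs. The at set of Tap1 lay nearer, 0.399 and 0.404 from the at and g_at sets of Psmb9 and 0.497 from Psmb8. Tap2 lay 0.302 and 0.304 from the Psmb9 sets, against 0.490 and 0.582 from those of Tap1, its partner in the transporter.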

How the data were processed

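Expression was measured on 9 oligonucleotide arrays of rat lung RNA. The authors deposited linear intensity values, nearly equal in trimmed mean on every array; the scaling software is not given in the sources used here. Probe sets were named by the platform annotation (1 symbol for 7006, several for 308, none for 1426), and 6994 symbols were updated by gene number. Values below 0 were set to 0 and log2(intensity + 40) was taken of the deposited values. The 59 control probe sets and the 40% of lowest mean were left out, which left 5244 probe sets. A group-means model over 8 samples (4 residual degrees of freedom) was fitted (limma 3.58.1 under R 4.3.3; eBayes, variance trend), and p-values were adjusted by Benjamini-Hochberg over all tested probe sets. A call is an adjusted p under 0.05. Levels are means of intensities, not of logs. The number of arrays limits the precision. The procedure was tested on simulated data with 200 changed probe sets among 5244, where 20.9%, 49.3% and 92.4% of changes of 1.5, 2 and 4 times were called for mechanical 100% against spontaneous 21%, and 3.0%, 22.4% and 74.2% for the interaction.

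Samples were grouped by title. Their shared letters did not pair them: deviations from the group means correlated between -0.128 and 0.066. Alternatives changed 1 choice at a time, with 1 exception: quantile or cyclic loess scaling, offsets of 8 and 80, no filter or one of 60%, 1 array only of the averaged sample, a block for the letter, a block for the lot line, no trend, and each sample left out. The lot block changed a second choice, since it kept the 9 arrays apart. A fit with the arrays apart and no lot block, and separate fits of the arrays that carry the lot line and of those that do not, were added after the data were seen. The members and the gene lists were chosen with earlier results of these data known. Every member probe set is named. Partners came from a fixed set, up to 4 genes of smallest p from each other list, and the 3 genes of most similar pattern per member. Promoter sequences are RefSeq's on GRCr8. Roles of genes are general knowledge. Plots used matplotlib 3.10.9 (Python 3.11.15).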

Additional observations from a re-analysis of the deposited data

Results flagged for a closer look

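The change with ventilation differed between oxygen levels, by the test of the difference itself, for 2 of the 7 probe sets. The g_at set of Tap1 had an interaction of 1.53 on the log2 scale (limma adjusted p = 0.0055), its change with ventilation being 1.15 at 100% oxygen and -0.38 at 21% oxygen. Psmb8 had an interaction of -0.96 (limma adjusted p = 0.022), its change being -0.37 at 100% oxygen and 0.59 at 21% oxygen. The interaction was called for 27.4% of all tested probe sets, so 2 of 7 was near that share. With the lot line as a block 0 members were called. The at set of Tap1 was not called (0.73, limma adjusted p = 0.076). The Psmb8 interaction ran from -1.2 to -0.73 with a sample left out and was not called without a filter on low signal.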

How the results depend on the processing

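Of 42 tests of member probe sets 20 were called. Of these calls 7 stayed with each of the 8 samples left out, 6 stayed under each of the other 11 settings listed in the methods, and 6 stayed in both: the Tap1 g_at set and Tap2 with ventilation at 100% oxygen, and Tap2, Psmb8 and both Psmb9 sets with oxygen under ventilation. The causes of the changes below were not tested.

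The 2 calls of mechanical 100% against spontaneous 21% became 1 under quantile scaling, the 60% filter, either array of the averaged sample alone, the letter as a replicate block, the lot block, no trend, and within the arrays with a lot line, and 0 to 2 with a sample left out. The 3 calls of ventilation at 21% oxygen became 0 with the lot block and 0 to 3 with a sample left out. The 3 calls of ventilation at 100% oxygen became 1 within the arrays without a lot line. The 4 calls of oxygen in spontaneous breathing became 2 without a filter, 0 with the lot block, and 0 to 4 with a sample left out. The 2 interaction calls became 4 under quantile and 4 under cyclic loess scaling, 1 without a filter, 0 with the lot block, and 1 to 3 with a sample left out. The 6 calls of oxygen under ventilation became 4 under quantile scaling, under cyclic loess scaling, with the lot block and within the arrays without a lot line, 5 without a filter, and 4 to 6 with a sample left out. The lot block also kept the 9 arrays apart, and keeping them apart without it, a fit added after the data were seen, left each of the 6 counts of calls as it was.

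Signs turned as follows. With quantile scaling B2m read 0.10 for mechanical 100% against spontaneous 21%, 0.03 and 0.12 for ventilation at 21% and 100% oxygen, 0.07 for oxygen under ventilation and 0.09 for the interaction, which was 0.08 with cyclic loess and 0.11 with the lot block. The at set of Tap1 read 0.05 with the lot block for ventilation at 21% oxygen, and for oxygen under ventilation -0.15 with quantile, -0.19 with cyclic loess, -0.25 with the lot block and within the arrays without a lot line, -0.02 with the arrays apart and no lot block, and -0.17 to 0.29 with a sample left out. Tap2 in mechanical 100% against spontaneous 21% read -0.10 with quantile, -0.13 with cyclic loess and -0.02 to 0.17 with a sample left out. Its interaction read -0.16, -0.25, -0.01 with an offset of 80, -0.01 with the first array, -0.20 with the lot block, -0.02 with the arrays apart and no lot block, and -0.09 to 0.11 with a sample left out. With ventilation at 100% oxygen the Psmb9 at set read -0.13 with quantile and -0.17 with cyclic loess, and the g_at set -0.06 with quantile, -0.04 with the first array, -0.11 with the lot block and within the arrays without a lot line, and -0.02 to 0.19 with a sample left out. With oxygen in spontaneous breathing the g_at set read 0.06 with the lot block. Scaling also moved the median change of all tested probe sets, from 0.14 to 0.01 under quantile scaling for oxygen under ventilation.

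The letters of the titles share no animal or day in the labels, and the replicate block lost 3 of the 20 calls.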
